A study of Homo sapiens with 16 samples.

Results

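The genes described here are 10 of the route from citrulline through arginine and ornithine to the polyamines: ASS1, ASL, ARG2, ODC1, AMD1, SRM, SMS, SAT1, OAZ1 and AZIN1. They were picked by symbol from the 58051 gene identifiers of the table. ASS1 was picked because of its measured response in these libraries, so its values are given as a description, without a test. RNA was sequenced from P493-6, a single immortalised human B cell line whose MYC transgene is shut down by doxycycline and which carries an estrogen-dependent form of the viral factor EBNA2. The 16 libraries form 4 groups of 4. High-MYC cells had plain medium, and medium-MYC cells had 1 µM β-estradiol together with doxycycline at 0.1 µg/mL, begun 24 h before treatment. Within each MYC level, cells then received for 24 h either DMSO (control) or IMP1088 at 100 nM. IMP1088 blocks NMT1 and NMT2, the enzymes that attach the fatty acid myristate to proteins. MYC level, doxycycline and estradiol change together between the groups and cannot be told apart. The labels do not say that the 4 libraries of a group came from separate cultures, so p-values measure only the spread between these libraries, which may be technical.

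ASS1 joins citrulline and aspartate to argininosuccinate, and ASL splits that product into arginine and fumarate. Arginase (ARG2 is the mitochondrial form) turns arginine into ornithine, ODC1 turns ornithine into putrescine, and SRM and SMS extend putrescine to spermidine and spermine with aminopropyl groups that AMD1 makes available from S-adenosylmethionine. OAZ1, an antizyme, sends ODC1 protein to the proteasome, AZIN1 blocks antizymes, and SAT1 acetylates spermidine and spermine for breakdown or export. ODC1 is a textbook transcriptional target of MYC, and polyamine synthesis is known to rise in growing lymphoid cells.

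Read totals ran from 8755296 to 13858534 per library. MYC itself stood at 31649 ± 2129.7 normalized counts in high-MYC controls, 47542 ± 505 with the inhibitor at high MYC, 959 ± 48.7 in medium-MYC controls and 1382 ± 51.2 with the inhibitor at medium MYC (mean ± SD, n = 4 libraries here and below). NMT1 lay between 1417 and 1807 in all 16 libraries. All 8 B cell markers looked up had reads, and their summed level was 24049 to 24246 in high-MYC controls, 19425 to 20409 in high-MYC inhibitor libraries, 39427 to 40154 in medium-MYC controls and 34847 to 36002 in medium-MYC inhibitor libraries. The T cell marker CD3D, the monocyte markers FCN1 and S100A9, the epithelial keratins KRT8, KRT18 and KRT19, and the fibroblast marker DCN had 3 reads or fewer in every library. Other markers were detected: 3 of 5 T cell, 1 of 5 monocyte, 1 of 4 epithelial and 2 of 4 fibroblast markers had a mean of at least 10 normalized counts. The summed levels of the 5 T cell markers (57.2 to 243), 5 monocyte markers (41.4 to 83.4), 4 epithelial markers (9.39 to 86.3) and 4 fibroblast markers (68.1 to 649) moved with the groups, and their part in the results was not tested. In bulk RNA a smaller share of cells with a transcript and less of it per cell cannot be told apart.

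In GENCODE 29 on GRCh38, ASS1 (ENSG00000130707) lies at chr9:130444929-130501274 on the plus strand, ASL at chr7:66075798-66093558 on the plus strand, ODC1 at chr2:10439968-10448504 on the minus strand and SRM at chr1:11054584-11060024 on the minus strand. SAT1 lies at chrX:23783173-23786226 and SMS at chrX:21940573-21994835, both on the plus strand. Exons of ASL and OAZ1 overlap those of another annotated gene on the same strand (AC068533.4 and AC005258.1), and exons of ARG2, OAZ1 and AZIN1 overlap VTI1B, JSRP1 and AZIN1-AS1 on the opposite strand. Whether the counting used strand is not given in the sources used here, so reads of these pairs may be shared. By the table of gene names 14 identifiers are ASS1 pseudogenes, of which 11 carry that name in GENCODE 29, and its values are given below with and without them.

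The E-box CACGTG is the site best known for binding MYC with its partner MAX. It is its own reverse complement, so a single strand was read. RefSeq promoter windows of GRCh38.p14, 250 bases before to 50 after each start, were found for 9 of the 10 genes, and 3 of these 9 held CACGTG: ASS1, ODC1 and SRM. Of all 27305 genes with a window, 8.77% held it. Stretches with the E-box in capitals are shown 5′ to 3′ along each gene, for ASS1 at chr9:130444878-130444907, plus strand, for ODC1 at chr2:10448013-10448120, minus strand, and for SRM at chr1:11060025-11060268, minus strand.
ASS1: gcgcgtccccgcCACGTGtccccggtcacc
ODC1: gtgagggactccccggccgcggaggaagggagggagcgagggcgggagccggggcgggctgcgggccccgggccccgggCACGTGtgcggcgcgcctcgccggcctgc
SRM: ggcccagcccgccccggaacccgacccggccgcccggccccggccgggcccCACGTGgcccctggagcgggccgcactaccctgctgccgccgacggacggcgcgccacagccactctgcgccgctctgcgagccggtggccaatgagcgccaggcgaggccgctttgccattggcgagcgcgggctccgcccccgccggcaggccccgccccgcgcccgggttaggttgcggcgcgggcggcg
The E-box began 71 bases before the second of 2 ASS1 starts, 29 bases before the second of 2 ODC1 starts and 199 bases before the SRM start. The ODC1 stretch falls inside the gene's span but outside its GENCODE exons, and another CACGTG of ODC1, 5 bases after the same start, is not shown. GGGCGG, the GC box, was searched on both strands and found for 8 of the 9 genes (all but SAT1), against 48.3% of all genes with a window. TGATGNAA, the composite element read by ATF4 and its partners, was also searched on both strands and found for 0 of the 9, against 4.46%. These matches are letters in a window and not measured binding.

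ASS1 RNA was abundant at high MYC, low in medium-MYC controls and in between when medium-MYC cells had the inhibitor. The 4 high-MYC control libraries held 254, 262, 239 and 234 normalized counts, and the 4 high-MYC inhibitor libraries held 251, 241, 258 and 241. The medium-MYC controls held 13.6, 15.4, 19.3 and 14.8, and the medium-MYC inhibitor libraries 139, 128, 152 and 127. The 2 high-MYC groups overlapped, whereas every medium-MYC inhibitor library lay above every medium-MYC control and below every high-MYC library. The means were 247 ± 12.9, 248 ± 8.42, 15.7 ± 2.46 and 137 ± 11.8 in that order. The level with inhibitor was therefore 1.00 times that of controls at high MYC and 8.67 times at medium MYC, and on the log2(value + 1) scale used for all log2 changes here these were 0.00 and 3.05. By size, the medium-MYC change ranked at number 9 among the 13765 genes tested, a position that belongs to how the gene was chosen.

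Between MYC levels, ASS1 was 15.7 times higher at high than at medium MYC in controls and 1.81 times higher with the inhibitor present. The medium-MYC control values rest on 13 to 22 reads per library, against 119 to 337 reads elsewhere. Reads assigned to the ASS1 pseudogenes numbered 3 to 15 per library in medium-MYC controls, which was 12% to 53.6% of the reads of ASS1 and pseudogenes together, and at most 11.3% in the other groups. With pseudogenes counted in, the high over medium ratio in controls was 10.3, the inhibitor over control ratio at medium MYC was 6.03, and the high over medium ratio with inhibitor was 1.73. How reads of near-identical copies were divided is not given in the sources used here, so the folds against medium-MYC controls are uncertain, and their range was not bounded.

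**Figure D1:**
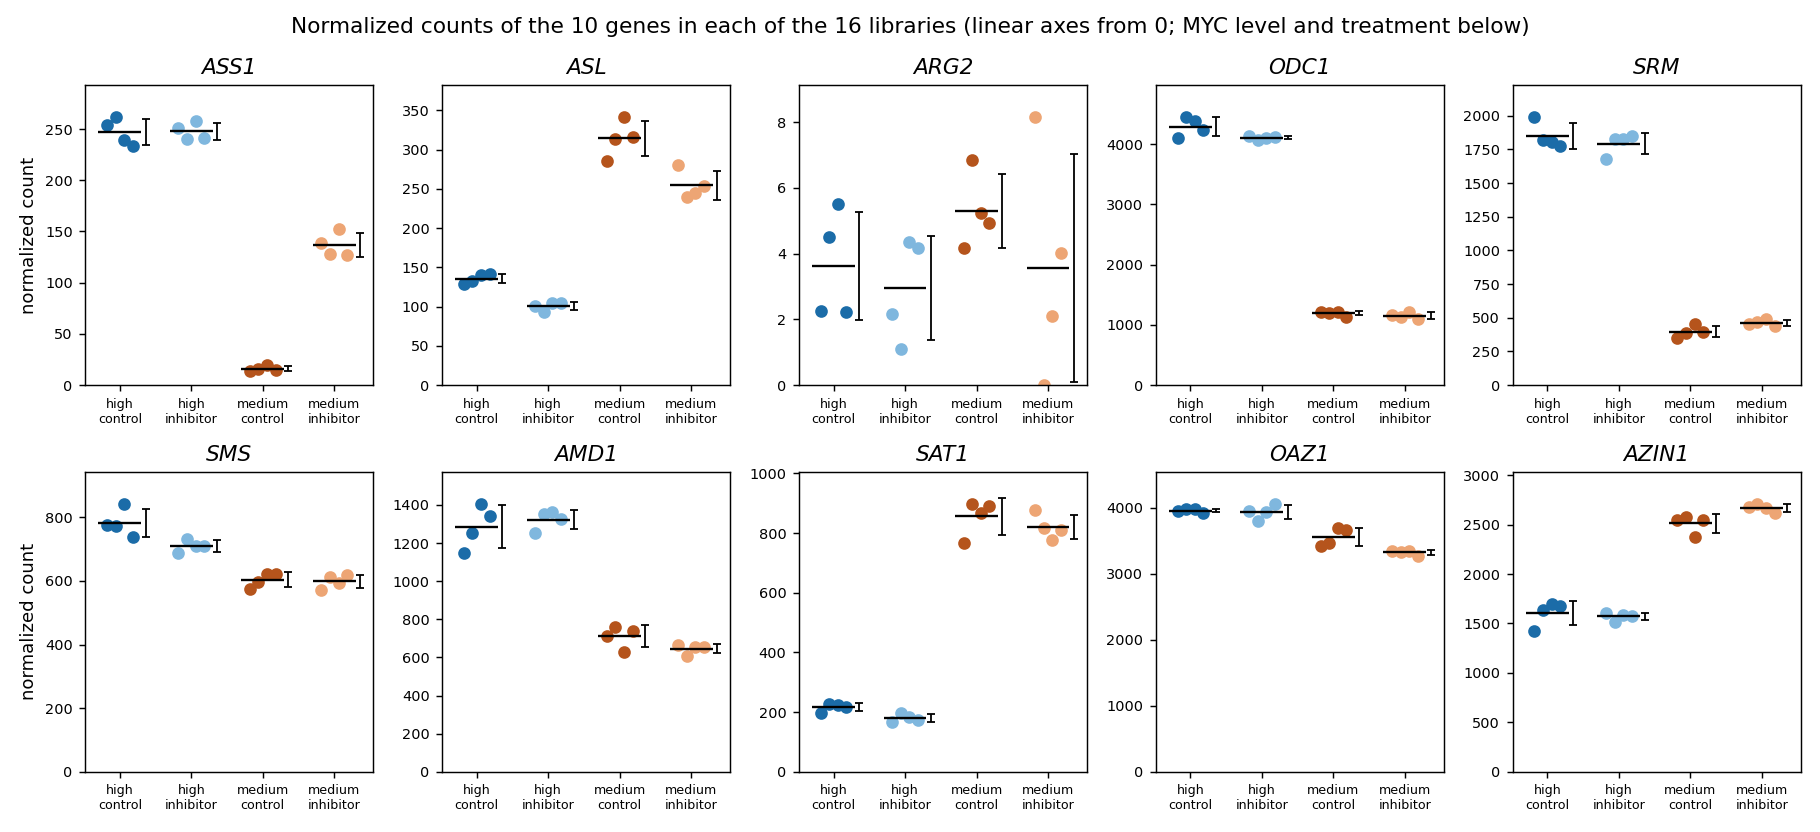
Normalized counts (vertical axes, linear from 0) of the 10 genes in the 4 groups; each point is a library, the line is the group mean and the bar beside it is 1 SD. ASS1 in medium-MYC controls sits between 13.6 and 19.3 and with inhibitor between 127 and 152, while ODC1 and SRM separate by MYC level and not visibly by treatment.

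ASL, the next enzyme after ASS1, ran the other way between MYC levels and with the inhibitor at medium MYC. It was higher at medium MYC and lower with the inhibitor at both MYC levels, whereas the ASS1 groups overlapped at high MYC. High-MYC controls held 129, 133, 140.2 and 141 normalized counts and high-MYC inhibitor libraries 101, 93.2, 105 and 104. Medium-MYC controls held 286, 313, 341 and 316 and medium-MYC inhibitor libraries 281, 239, 244 and 254. Within each MYC level no inhibitor library reached a control library, although the highest medium-MYC inhibitor library (281) came close to the lowest control (286). ASL fell by 0.43 on the log2 scale with the inhibitor at high MYC (SE 0.0742, limma adjusted p = 0.000171) and fell by 0.30 at medium MYC (adjusted p = 0.00403). The difference between these responses, -0.12 with a 95% interval of -0.34 to 0.09, did not pass (adjusted p = 0.55). Medium-MYC controls were 2.32 times as high as high-MYC controls (log2 change 1.204, adjusted p = 2.25e-12), and the ratio under inhibitor was 2.53.

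ARG2 was at the edge of detection in these cells, with 0 to 8 reads per library and a highest value of 8.16 normalized counts, so it fell under the minimum mean of 10 and was not tested. Its group means were 3.63 ± 1.65, 2.95 ± 1.58, 5.30 ± 1.13 and 3.57 ± 3.47, in the order used above, and all groups overlapped. The liver arginase ARG1 had at most 1 read in any library, and OTC, which turns ornithine into citrulline in the urea cycle, had 0.

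ODC1, the first enzyme of polyamine synthesis, differed widely between MYC levels, and its response to the inhibitor did not pass the test at either. High-MYC controls held 4095, 4449, 4390.4 and 4232 normalized counts and high-MYC inhibitor libraries 4131, 4073, 4102 and 4124. Medium-MYC controls held 1216, 1204, 1212 and 1137 and medium-MYC inhibitor libraries 1167, 1129, 1221 and 1094. No high-MYC library came near a medium-MYC library, and the treatments overlapped at both levels. ODC1 was 3.60 times higher at high than at medium MYC in controls (log2 change of medium against high -1.85, SE 0.0352, adjusted p = 3.34e-21) and 3.56 times higher under inhibitor. The inhibitor's log2 changes were -0.06 at high MYC (95% interval -0.14 to 0.01, adjusted p = 0.207) and -0.05 at medium MYC (interval -0.12 to 0.02, adjusted p = 0.344).

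SRM, which makes spermidine, showed a still wider gap between MYC levels and a small rise with the inhibitor at medium MYC. High-MYC controls held 1989.8, 1820.5, 1803 and 1777 normalized counts and high-MYC inhibitor libraries 1675, 1826, 1826 and 1847. Medium-MYC controls held 348, 389, 452 and 397 and medium-MYC inhibitor libraries 456, 465, 491 and 439.6. At medium MYC the lowest inhibitor library lay under the highest control, so these groups overlapped at their edges. SRM was 4.66 times higher at high than at medium MYC in controls (log2 change of medium against high -2.22, adjusted p = 1.13e-18) and 3.88 times under inhibitor. With the inhibitor it rose by 0.23 on the log2 scale at medium MYC (SE 0.0599, adjusted p = 0.00665), and the value at high MYC was -0.04 (interval -0.17 to 0.08, adjusted p = 0.654). The difference between the 2 responses was -0.27 (interval -0.45 to -0.09) with an adjusted p of 0.0512, just outside the threshold. It passed with edgeR (adjusted p = 0.0446) and DESeq2 (0.0398) on the recovered reads. Without medium-MYC control replicate 3, the highest of its group, it was -0.33 (adjusted p = 0.00367), and without medium-MYC control replicate 1 it was -0.21 (adjusted p = 0.108).

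AMD1, which supplies decarboxylated S-adenosylmethionine, and SMS, which makes spermine, were also lower at medium MYC, by less. AMD1 ran from 1149 to 1406 normalized counts in the 8 high-MYC libraries and from 609.9 to 762 in the 8 medium-MYC libraries, with no overlap. Its log2 change of medium against high MYC was -0.85 in controls (adjusted p = 1.8e-11) and -1.03 under inhibitor (adjusted p = 6.29e-13). Its response to the inhibitor did not pass at either level (0.04 and -0.14, adjusted p = 0.652 and 0.099). At medium MYC it passed with a value of -0.19 without medium-MYC control replicate 3, the lowest of its group (adjusted p = 0.011). A correction for GC content also brought it past the threshold, at -0.18 (adjusted p = 0.000896).

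SMS held 774, 772, 842 and 738 normalized counts in high-MYC controls, 686, 731, 710.4 and 709 in high-MYC inhibitor libraries, and 571 to 623 in the 8 medium-MYC libraries. Its highest high-MYC inhibitor library (731) lay just under its lowest high-MYC control (738). SMS fell by 0.14 with the inhibitor at high MYC (SE 0.0448, adjusted p = 0.0254), and its value at medium MYC was -0.01 (interval -0.11 to 0.08, adjusted p = 0.878). The call at high MYC was lost with quantile normalization (adjusted p = 0.0992), with DESeq2 (0.0574), without high-MYC control replicate 3 (0.0971) and without high-MYC inhibitor replicate 1 (0.0774). Between MYC levels it fell by 0.37 in controls (adjusted p = 1.46e-07), the smallest drop among the 4 synthesis enzymes.

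SAT1, the acetyltransferase that starts polyamine breakdown, had the opposite pattern to ODC1 and SRM. High-MYC controls held 197, 227, 223 and 218 normalized counts and high-MYC inhibitor libraries 167, 196, 184 and 174. Medium-MYC controls held 767, 898, 869 and 891 and medium-MYC inhibitor libraries 877, 816, 778 and 812. All medium-MYC libraries were above all high-MYC libraries by a wide margin, and at high MYC the inhibitor and control libraries met without overlap (196 against 197). SAT1 was 3.96 times as high at medium as at high MYC in controls (log2 change 1.98, SE 0.064, adjusted p = 2.54e-17) and 4.55 times under inhibitor. With the inhibitor it fell by 0.26 at high MYC (adjusted p = 0.00398), and at medium MYC the value was -0.06 (interval -0.19 to 0.07, adjusted p = 0.545). The difference between the responses was -0.20 (interval -0.39 to -0.01) and did not pass (adjusted p = 0.195).

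The 2 regulators of ODC1 protein moved in opposite directions with MYC level. AZIN1, the inhibitor of antizymes, held 1428, 1632, 1692 and 1679 normalized counts in high-MYC controls and 1607, 1518, 1583 and 1579 in high-MYC inhibitor libraries. In medium-MYC controls AZIN1 held 2550.3, 2573, 2374 and 2551, and in medium-MYC inhibitor libraries 2682, 2709.9, 2669 and 2618. Medium-MYC libraries lay above all high-MYC libraries, and AZIN1 was 1.56 times as high at medium as at high MYC in controls (log2 change 0.65, adjusted p = 7.87e-12) and 1.70 times under inhibitor. At medium MYC every inhibitor library was above every control, yet the log2 change of 0.09 did not pass (adjusted p = 0.141). The difference between the responses of AZIN1, -0.12, did not pass (adjusted p = 0.272), and without high-MYC control replicate 1, the lowest of its group, it was -0.17 (adjusted p = 0.0167).

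OAZ1, the main antizyme, differed least between MYC levels among the 9 tested or described genes above the minimum mean. It ran from 3795 to 4061 normalized counts at high MYC and from 3270.0 to 3693 at medium MYC. Its log2 change of medium against high MYC was -0.16 in controls (adjusted p = 5.16e-05) and -0.24 under inhibitor (adjusted p = 1.07e-07). With the inhibitor OAZ1 fell by 0.10 at medium MYC (SE 0.0288, adjusted p = 0.0149), from 3415 to 3693 in controls to 3270.0 to 3349 with inhibitor. That call was lost with quantile normalization (adjusted p = 0.139), without medium-MYC control replicate 3 (0.05002) or 4 (0.0578), and with a GC correction, which put the value at 0.00 (adjusted p = 0.971).

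**Figure D2:**
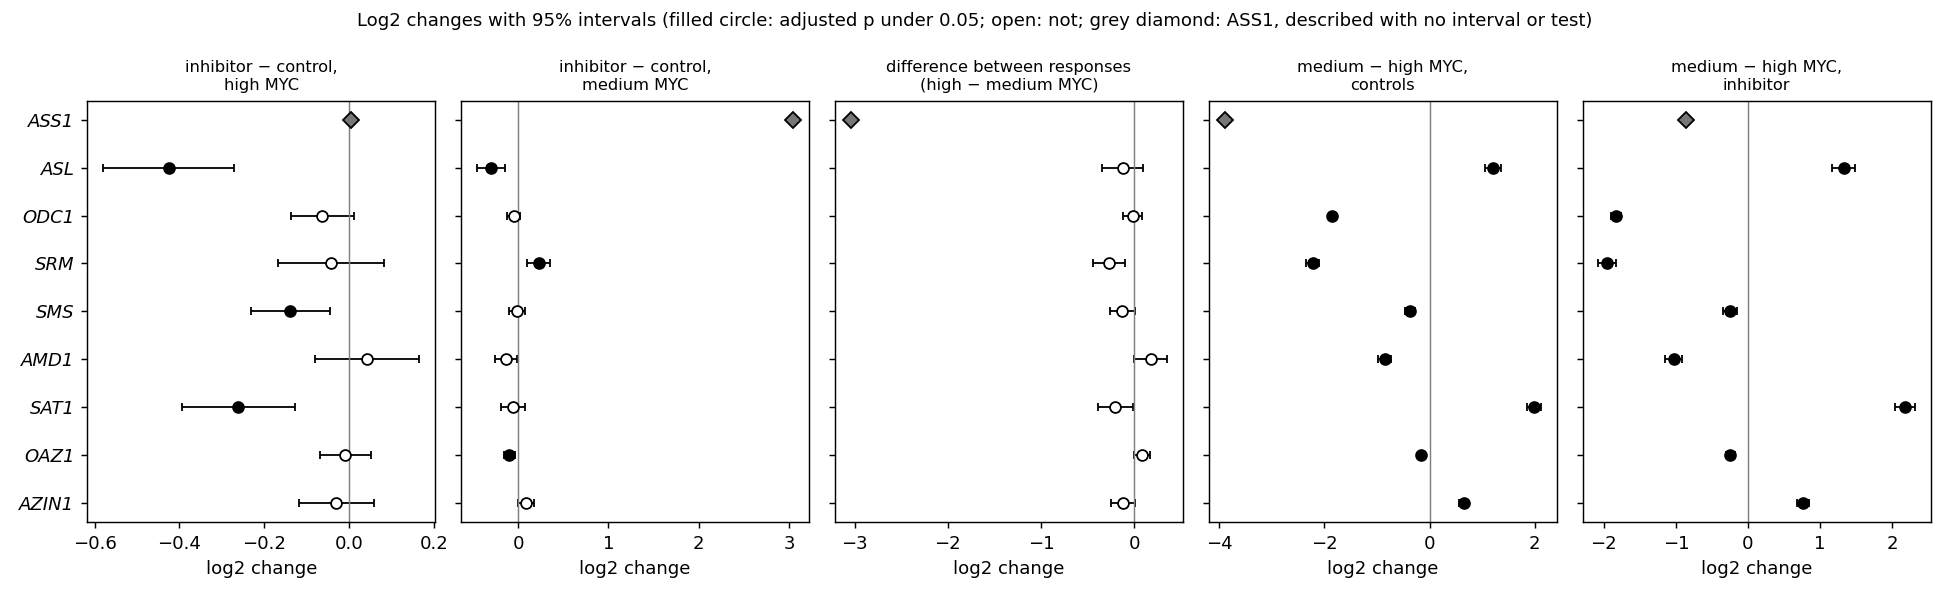
Log2 changes (horizontal axes, a separate scale per panel) of the 9 genes above the minimum mean in the 5 comparisons; circles are limma estimates with 95% intervals, filled where the adjusted p was under 0.05, and the grey diamond is ASS1 without interval or test. In the last 2 panels the filled circles of ASL, SAT1 and AZIN1 lie to the right of 0 and those of ODC1, SRM, SMS, AMD1 and OAZ1 to the left.

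Counted over the 8 tested genes besides ASS1, all differed between MYC levels and fewer changed with the inhibitor. Of medium against high MYC in controls, 3 were higher (ASL, SAT1, AZIN1), where 38.9% of the 13765 tested genes were higher, and 5 were lower (ODC1, SRM, SMS, AMD1, OAZ1), where 37.3% were lower. Under inhibitor the same genes were again 3 higher and 5 lower, against 39.7% and 37.8% of all tested genes. The 2 counts compare different libraries, but both take their spread from 1 fit of all 16, so they are not independent. Most of the tested genes differed between the MYC levels, so a count of 8 of 8 is read against a high background. The inhibitor at high MYC gave 0 higher (limma, also 0 at an unadjusted p under 0.05 and 0 with edgeR and DESeq2), against 10.5% of all tested genes, and 3 lower (ASL, SAT1, SMS), against 16.3%. Over all tested genes the split at high MYC was 1442 higher and 2247 lower, and 1727 and 1770 with quantile normalization. At medium MYC 1 was higher (SRM), against 11.7% of all tested genes, and 2 were lower (ASL, OAZ1), against 14.6%. Over all tested genes this split was 1606 higher and 2012 lower, but 1962 and 1659 with equal library totals and 1963 and 1876 with quantile normalization.

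For the difference between the responses, limma called 0 of the 8 higher, against 3.31% of all tested genes, and 0 lower, against 5.33%. At an unadjusted p under 0.05 there were 4 (AMD1 and OAZ1 with a positive difference, SRM and SAT1 with a negative one), and edgeR and DESeq2 each called 1 (SRM). The median log2 change of the 8 genes was -0.05 at high and -0.05 at medium MYC, beside -0.02 and -0.01 over all tested genes. Between MYC levels the median of the 8 was -0.26 in controls and -0.24 under inhibitor, beside 0.02 and 0.02 over all tested genes. At medium MYC the other 8 had responses of at most 0.30 in size, and their contrast with ASS1 belongs to how ASS1 was chosen.

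Per kilobase of exon, with the exons of all annotated transcripts of a gene merged, ODC1 led at high MYC and OAZ1 at medium MYC. The merged length can exceed that of the transcripts present, which were not identified. It was 3436 bases for OAZ1, in 2 blocks, 2968 for ODC1, 7027 for AMD1 and 6426 for AZIN1. The order between genes depends on these lengths and is uncertain. In high-MYC controls the order was ODC1 (1446 ± 53.9 normalized counts per kilobase), OAZ1 (1152 ± 7.75), SRM (973 ± 50.8), SMS (362 ± 20.3), AZIN1 (250.2 ± 19.1), AMD1 (183 ± 15.8), SAT1 (86.5 ± 5.41), ASS1 (81.0 ± 4.22), ASL (42.4 ± 1.84) and ARG2 (1.5 ± 0.681). Each neighbour in that order was separated in all 4 libraries except SAT1 and ASS1, which overlapped. In medium-MYC controls the order was OAZ1 (1036 ± 40.7), ODC1 (402 ± 12.6), AZIN1 (391 ± 14.4), SAT1 (343 ± 24.4), SMS (279 ± 10.7), SRM (209 ± 22.4), AMD1 (101 ± 8.35), ASL (98.3 ± 7.10), ASS1 (5.16 ± 0.806) and ARG2 (2.19 ± 0.466). Here ODC1 and AZIN1 overlapped, as did AMD1 and ASL, and with the inhibitor the same pairs overlapped.

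Ratios within a library do not depend on the scaling between libraries, but their size depends on the merged exon lengths. Per kilobase, ODC1 to OAZ1 was 1.25 ± 0.0419 in high-MYC controls and 1.21 ± 0.0274 with inhibitor, and it was 0.389 ± 0.0237 in medium-MYC controls and 0.401 ± 0.0153 with inhibitor. SAT1 to ODC1 was 0.0598 ± 0.00186 and 0.0521 ± 0.00408 at high MYC, and 0.855 ± 0.0777 and 0.847 ± 0.0619 at medium MYC, control first. SRM to SMS was 2.70 ± 0.201 and 2.88 ± 0.0833 at high MYC, and 0.747 ± 0.0583 and 0.882 ± 0.0572 at medium MYC. In each of these ratios all 8 libraries of a MYC level stood apart from all 8 of the other.

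The other genes of the same routes were grouped in 5 lists that hold 47 genes besides the 10, of which 37 were tested. Among the 4 other tested genes of polyamine control and catabolism (AZIN2, OAZ2, PAOX, SAT2), 4 were higher at medium than at high MYC in controls, where 38.9% of all tested genes were higher. The log2 changes were 0.68 for OAZ2, a second antizyme (adjusted p = 6.46e-09), 0.93 for SAT2, an acetyltransferase related to SAT1 (5.22e-06), and 0.73 for PAOX, the oxidase of acetylated polyamines (0.00148). With the inhibitor at high MYC, limma called SAT2 higher (0.41, adjusted p = 0.0377) and 0 lower, against 10.5% and 16.3% of all tested genes. There edgeR and DESeq2 called 0 of the 4. At medium MYC limma, edgeR and DESeq2 called 0 of the 4, and 2 (AZIN2, OAZ2) had an unadjusted p under 0.05. Of all tested genes, limma called 11.7% higher and 14.6% lower at medium MYC.

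Of the 15 tested arginine and urea cycle genes besides ASS1 and ASL, 9 were lower and 5 higher at medium MYC in controls, where 37.3% and 38.9% of all tested genes were. The lower ones included SLC7A2, a cationic amino acid transporter (log2 change -2.47, adjusted p = 3.78e-19), ALDH18A1, the first enzyme from glutamate towards proline and ornithine (-1.28, 4.6e-18), and GOT2, the mitochondrial aspartate aminotransferase (-1.16, 2.49e-19). The 5 higher were DDAH2, GOT1, NOS1, SLC25A13 and SLC25A2; no high-MYC library had over 2 reads of NOS1. With the inhibitor at medium MYC, 3 rose (SLC7A1, SLC7A2, ALDH18A1) and 3 fell (DDAH2, GOT2, SLC7A7) with limma, against 11.7% and 14.6% of all tested genes. edgeR called 5 higher (GOT1 and NOS1 in addition) and 2 lower (DDAH2, GOT2), and DESeq2 called the same 5 higher and 1 lower (DDAH2). At high MYC 2 rose (OAT, SLC7A2) and 3 fell (DDAH2, SLC7A6, SLC7A7) with limma, edgeR and DESeq2 alike. Of all tested genes, limma called 10.5% higher and 16.3% lower there. SLC7A1, the main arginine importer of many cells, went from 1183 ± 30.4 to 1461 ± 69.0 normalized counts at medium MYC (log2 change 0.30, adjusted p = 9.48e-07). At high MYC it went from 2225 ± 45.8 to 2135 ± 63.9, which did not pass (-0.06, adjusted p = 0.233). Its responses differed between the MYC levels (-0.36, adjusted p = 3.77e-05).

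Among 5 tested polyamine transport genes, 4 were lower at medium MYC in controls (ATP13A2, ATP13A3, SLC18B1, SLC3A2) and 1 higher (SLC12A8), beside the same 37.3% and 38.9%. SLC3A2, the heavy chain of several amino acid transporters, which has also been linked to polyamine export, changed with the inhibitor in opposite directions: it rose from 462 ± 17.3 to 679 ± 24.7 normalized counts at medium MYC (log2 change 0.55, adjusted p = 2.28e-09) and fell from 1125 ± 40.01 to 1015 ± 44.4 at high MYC (-0.15, adjusted p = 0.0117). The difference between these responses was -0.70 (adjusted p = 6.8e-08). ATP13A2, a lysosomal polyamine exporter, fell at both levels, by 0.25 at high (adjusted p = 0.04) and by 0.39 at medium MYC (adjusted p = 0.00178). ATP13A3, a polyamine transporter, rose at high MYC (0.20, adjusted p = 0.00503), and its value at medium MYC did not pass (0.12, adjusted p = 0.0797). Of the 5, limma called 1 higher and 2 lower at high MYC, against 10.5% and 16.3% of all tested genes. At medium MYC 1 was higher and 1 lower, against 11.7% and 14.6%. SLC18B1 and SLC12A8 were called at neither level.

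Spermidine is also the donor for hypusine, the modified lysine of the translation factor EIF5A. Of the 4 hypusine genes, 2 were lower and 0 higher at medium MYC in controls, against 37.3% and 38.9% of all tested genes. EIF5A fell by 0.68 (adjusted p = 2.43e-15) and DOHH, the second enzyme of the modification, fell by 0.53 (adjusted p = 0.000651). DHPS (0.04, adjusted p = 0.445) and EIF5A2 (0.07, adjusted p = 0.819) were not called. The inhibitor gave 0 calls among the 4 at either level with limma, edgeR or DESeq2, and 0 at an unadjusted p under 0.05. Of all tested genes, limma called 10.5% higher and 16.3% lower at high MYC, and 11.7% and 14.6% at medium MYC.

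The methionine cycle gives AMD1 its substrate, and salvage recovers the methylthioadenosine that SRM and SMS release. Of 9 tested genes, 6 were lower and 3 higher (ADI1, MAT1A, MAT2B) at medium MYC in controls, against 37.3% and 38.9% of all tested genes. MTAP, which cleaves methylthioadenosine, fell by 2.17 (adjusted p = 5.24e-20), AHCY by 1.90 (adjusted p = 9.62e-23) and MAT2A, which makes S-adenosylmethionine, by 1.18 (adjusted p = 4.77e-20). With the inhibitor at medium MYC, AHCY (0.19), MAT2B (0.22) and ADI1 rose and MTAP (-0.21) and MAT2A fell with limma. Of all tested genes, 11.7% rose and 14.6% fell there. MAT2A (adjusted p = 0.0445) was called by neither edgeR nor DESeq2, and the other 4 by both. At high MYC limma called 2 higher, AHCY (0.09, adjusted p = 0.0229) and MAT1A, and 0 lower, against 10.5% and 16.3% of all tested genes. MAT1A had at most 3 reads per control library and 6 per inhibitor library, so no fold is given, and neither edgeR nor DESeq2 called it. Both called AHCY, and in addition edgeR called MRI1 lower and DESeq2 called MAT2A higher. Over the 37 list genes, 13 were higher and 21 lower at medium MYC in controls, with a median log2 change of -0.47; over all tested genes 38.9% were higher and 37.3% lower, with a median of 0.02. Exons of 24 of the 47 list genes overlap those of another gene on either strand, and their reads may be shared.

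**Figure D3:**
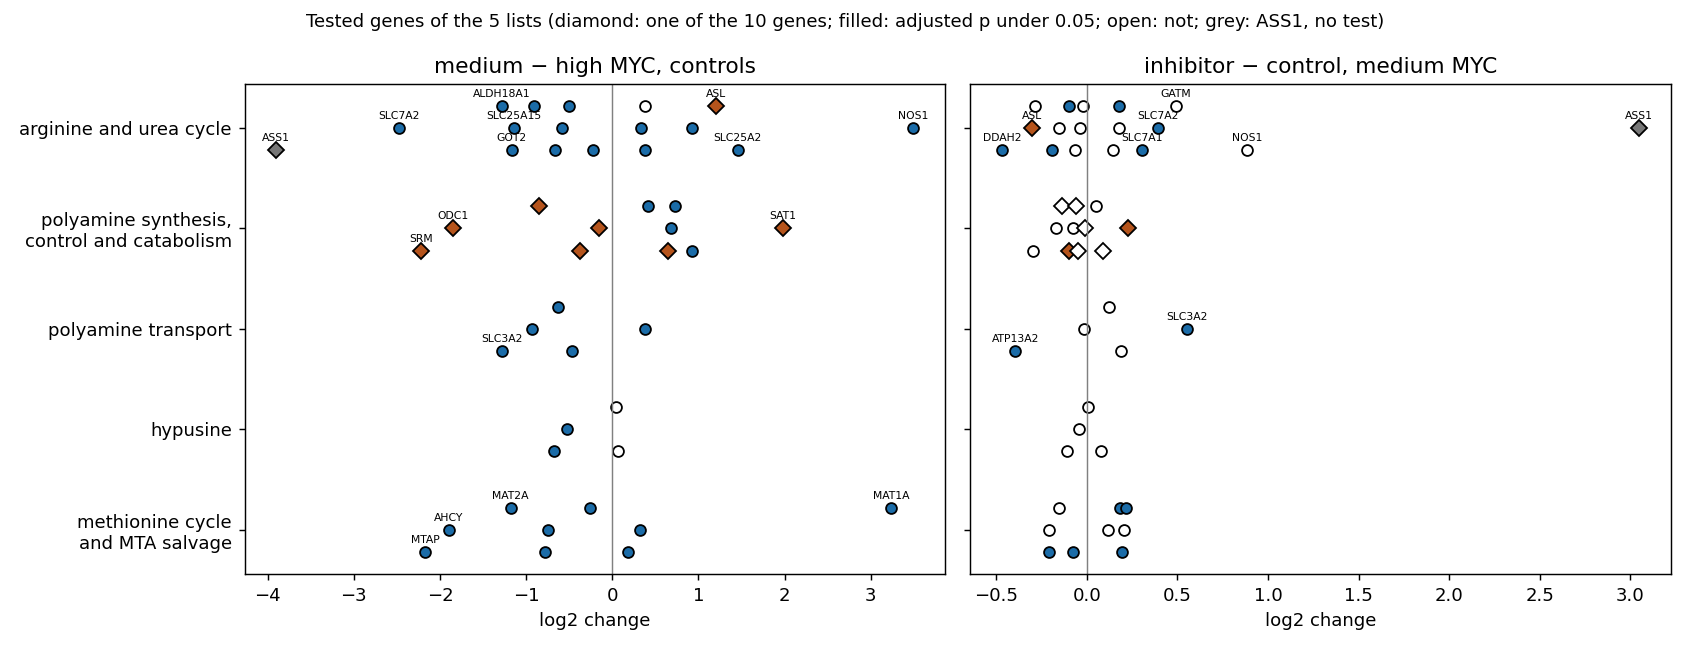
Log2 changes (horizontal axes) of all tested genes in the 5 lists for medium against high MYC in controls (left) and inhibitor against control at medium MYC (right); diamonds are among the 10 genes described, filled symbols passed an adjusted p of 0.05 and grey is ASS1. On the left ODC1, SRM and MTAP lie near -2 and SAT1 near 2, while on the right ASS1 at 3.05 stands alone beyond 1.

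Likeness to ASS1 was measured as the root mean square difference of log2(value + 1) over the 16 libraries, each gene's own mean taken off, among the 10902 other genes with a mean of at least 50. The 5 nearest were ACSM3 (0.715), PYCR1 (0.766), SLC16A10 (0.778), SLC7A5 (0.797) and CDHR3 (0.818), where the median gene stood at 1.62. PYCR1, a proline synthesis enzyme, had group means of 1108, 1057, 177 and 336 normalized counts in the same order of groups as ASS1 above. SLC7A5, a transporter of large neutral amino acids, had 4341, 4225, 502 and 901, and SLC16A10 had 124, 126, 21.0 and 43.0. ACSM3 had 48.5, 120, 9.19 and 33.3, and CDHR3 had 98.0, 149, 24.7 and 54.4. Unlike ASS1, ACSM3 and CDHR3 were thus also higher with the inhibitor at high MYC (log2 change 1.29 and 0.59). None of these 5 matched the depth of the ASS1 drop. ODC1 had far closer neighbours: C1QBP (0.0422), RRP1B (0.0615), PFAS (0.0776), PUS1 (0.0796) and ABCA3 (0.0804), beside a median of 0.936. C1QBP, a mitochondrial matrix protein, had 2746, 2754, 778 and 767 normalized counts.

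**Figure D4:**
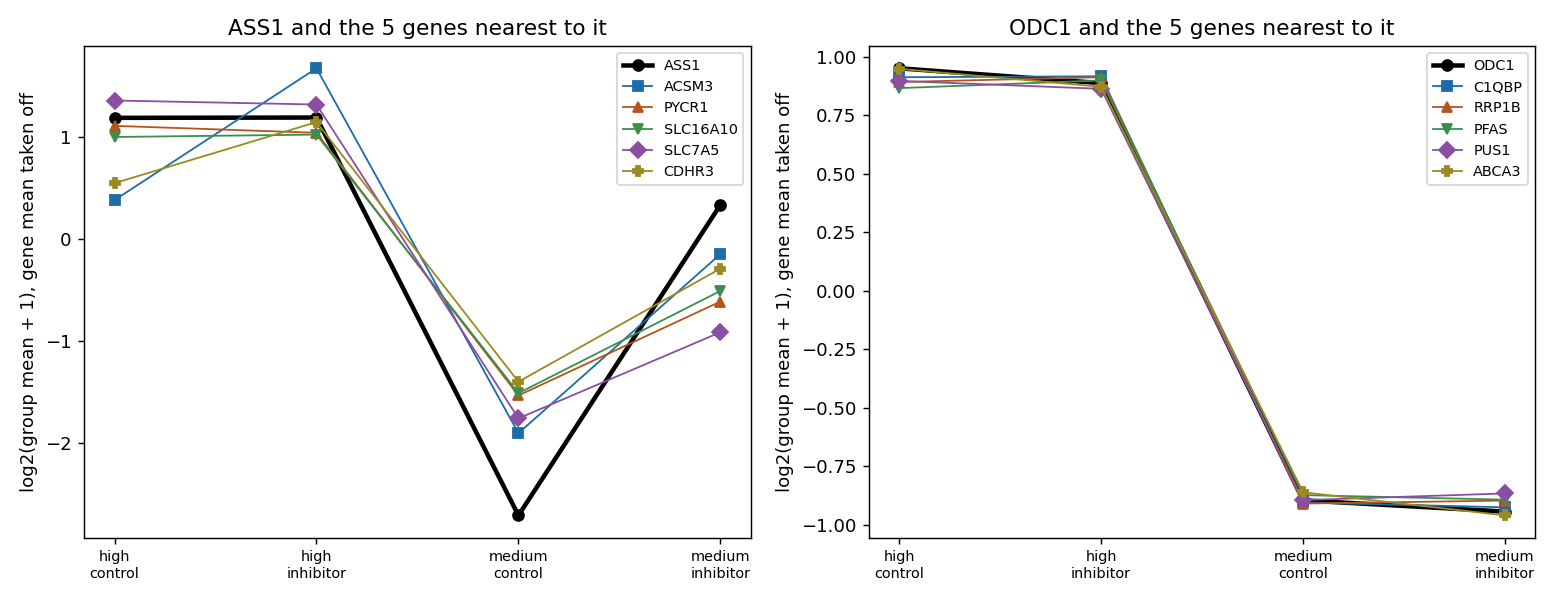
Group means as log2(mean + 1) with each gene's mean over the groups taken off (vertical axis), for ASS1 (left) and ODC1 (right) with the 5 genes nearest to each; lines join the 4 groups. The ASS1 panel shows neighbours with shallower drops in medium-MYC controls, and the ODC1 panel lines that nearly coincide.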

How the data were processed

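The deposited table gives a signal per gene and library that the authors named normalized counts. Per the submitters' processing notes, STAR 2.5.2a, RSEM 1.2.31, DESeq2 1.16.1 and GRCh38 were used; their roles, the annotation and the use of strand are not given in the sources used here. Each library's values were whole multiples of 1 step, the reciprocal of a median-of-ratios size factor, so whole reads were recovered for 100% of values (tolerance 1e-06). Intervals and floors based on reads cover counting error only.

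From the table, limma 3.58.1 (R 4.3.3, mean trend) was fitted to log2(value + 1) of 13765 genes (mean 10 or more), all 16 libraries in 1 fit with 4 group means, two-sided, with Benjamini-Hochberg adjustment over all tested genes and a threshold of 0.05. Fold changes on this scale understate those of low genes. edgeR 4.0.16 and DESeq2 1.42.0 were run on the recovered reads as alternatives; edgeR called 3703 genes for the inhibitor at high MYC and 3858 at medium MYC. The fit was tested on simulated data. Other alternatives covered scaling, pseudocount, filter, trend, GC content, a replicate block and leaving out each library.

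The 10 genes and the lists were chosen with earlier results of these data known. Named by rule were the 10 genes, up to 3 genes per list and comparison with the smallest adjusted p plus those that make up a count of 5 or fewer, the 5 nearest profiles to ASS1 and to ODC1, and MYC, NMT1 and NMT2 (NMT2 had at most 26 reads in any library). ASS1 pseudogenes were found by symbol, and the list genes ARG1 and OTC are named as not tested.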

Additional observations from a re-analysis of the deposited data

Results flagged for a closer look

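Among 40 groups of 4 libraries looked at for the 10 genes, 3 had a library far from the other 3 by Dixon's 95% criterion, which chance meets in about 1 of 20 groups. These were the lowest medium-MYC control library of ODC1, at 1136.57 normalized counts, the lowest high-MYC inhibitor library of SRM, at 1675.45, and the lowest medium-MYC control library of AZIN1, at 2374.27.

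By the fitted interaction with limma, inhibitor responses at high and medium MYC (high minus medium, log2) were called different for 6 of the 37 tested list genes. Of these, 2 had a positive and 4 a negative difference, against 3.31% and 5.33% of all tested genes. Among the 10 genes, limma called 0 of the 8 tested, edgeR and DESeq2 each called 1 (SRM), and ASS1, at -3.04, was described without a test. The arginine importer SLC7A1 had -0.363 (adjusted p = 3.77e-05), the transporter heavy chain SLC3A2 -0.703 (adjusted p = 6.8e-08) and the amino acid exchanger SLC7A6 -0.155 (adjusted p = 0.049). MTAP, which cleaves methylthioadenosine, had 0.287 (adjusted p = 0.00998), MAT2A 0.141 (adjusted p = 0.0191) and ADI1, a later salvage enzyme, -0.252 (adjusted p = 0.0406). Under 29 alternatives the call was lost 13 times for ADI1 (adjusted p up to 0.0976), 18 times for SLC7A6 (up to 0.106) and 1 time for MAT2A (0.0631, without a mean trend), and 0 times for SLC7A1, SLC3A2 and MTAP.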

How the results depend on the processing

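The number of genes other than ASS1 called for the difference between the responses was 0 and became 1 (SRM) with equal library totals, a pseudocount of 10, a filter at a mean of 100, the GC correction with or without the replicate block, edgeR and DESeq2. It ran from 0 to 2 when 1 library was left out. The OAZ1 response at medium MYC turned to 0.002046 with the GC correction, with or without the replicate block; the cause was not tested. The ASL call at medium MYC was lost with the GC correction and replicate block together (adjusted p = 0.0695). With a pseudocount of 10 the ASS1 response at medium MYC was 2.51 and its change between MYC levels in controls -3.32. All 8 calls between MYC levels stayed past the threshold in the same direction under the alternatives run, in controls and under inhibitor.

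No pairing by replicate number was seen on average: same-numbered libraries had mean correlations of deviations from -0.0715 to 0.0243. The highest single correlation was 0.239, between number 4 of the high-MYC and of the medium-MYC controls. The labels do not say whether the numbers pair libraries. With the replicate block the number of genes called was 3496 at high and 3442 at medium MYC, 1026 for the difference, and 10256 and 10469 between MYC levels, and the SRM difference passed (adjusted p = 0.0484), so 1 of the 8 genes was called. Few reads limit ARG2, the high-MYC values of NOS1, MAT1A and SLC25A2, and the medium-MYC control values of ASS1. Low-count folds on the log2 scale depend on the pseudocount.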
